A study of Homo sapiens with 6 samples.

Results

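The genes of the ISG15 system were examined in PC3, a long-established line of human prostate cancer cells, after depletion of VprBP. They were taken by symbol from a list of 6 named genes: ISG15 itself, the activating enzyme gene UBA7, the conjugating enzyme gene UBE2L6, the HERC ligase genes HERC5 and HERC6, and the protease gene USP18. Of these, 5 had a row among the 12227 genes of the deposited table, and UBA7 was not analysed here. The study sequenced RNA of 3 libraries from PC3 cells carrying shRNA against VprBP, labelled as VprBP knockdown, and of 3 libraries from PC3 cells carrying control shRNA, labelled as WT. All 6 were the same cell line, grown in DMEM with 10% serum at 37 degrees and 5% CO2, and 1.0 µg of total RNA went into each library. The labels number each group's libraries from sh1 to sh3, and it is not stated if a number stands for a separate hairpin, culture or library preparation, so p-values measure only the spread between these libraries, which may be technical.

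ISG15 is a small protein related to ubiquitin that is joined to lysines of other proteins, a process called ISGylation. UBA7 activates it, UBE2L6 carries it, and in human cells HERC5 is the main ligase that places it on newly made proteins, while in mice HERC6 does this. USP18 cuts ISG15 off its targets and also binds the interferon receptor subunit IFNAR2, where it dampens signalling. In most cells these genes are induced by type I interferon through a complex that includes STAT2 and IRF9 and binds a DNA element called ISRE.

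Promoter sequences are shown for the genes whose transcripts differed together, because the ISRE is a short motif that can be read in them. RefSeq promoter windows on GRCh38.p14, from 250 bases before to 50 bases after a start site, were found for 4 of the 6 genes, ISG15, HERC5, HERC6 and UBE2L6. They are written 5′ to 3′ on the gene's own strand, and capitals mark every match to the ISRE core, GAAA followed by any 2 bases and GAAA, on either strand.
ISG15, chr1:1013247-1013546, plus strand: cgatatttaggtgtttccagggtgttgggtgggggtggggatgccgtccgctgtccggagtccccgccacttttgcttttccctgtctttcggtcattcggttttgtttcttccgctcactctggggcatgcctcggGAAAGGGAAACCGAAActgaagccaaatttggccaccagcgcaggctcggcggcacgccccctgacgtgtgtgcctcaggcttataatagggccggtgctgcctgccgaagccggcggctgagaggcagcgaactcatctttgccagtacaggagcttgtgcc
HERC5, chr4:88456869-88457168, plus strand: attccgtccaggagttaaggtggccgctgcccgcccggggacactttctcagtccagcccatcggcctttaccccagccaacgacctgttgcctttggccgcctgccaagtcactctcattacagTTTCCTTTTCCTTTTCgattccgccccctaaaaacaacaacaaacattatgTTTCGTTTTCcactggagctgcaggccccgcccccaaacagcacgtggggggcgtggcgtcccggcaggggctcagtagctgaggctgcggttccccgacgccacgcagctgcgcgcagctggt
HERC6, chr4:88378602-88378901, plus strand: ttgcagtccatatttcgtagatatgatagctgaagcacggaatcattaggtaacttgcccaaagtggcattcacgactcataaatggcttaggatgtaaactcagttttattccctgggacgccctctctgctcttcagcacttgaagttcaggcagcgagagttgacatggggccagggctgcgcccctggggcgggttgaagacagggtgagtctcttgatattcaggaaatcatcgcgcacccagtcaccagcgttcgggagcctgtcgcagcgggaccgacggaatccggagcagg
UBE2L6, chr11:57567886-57568185, minus strand: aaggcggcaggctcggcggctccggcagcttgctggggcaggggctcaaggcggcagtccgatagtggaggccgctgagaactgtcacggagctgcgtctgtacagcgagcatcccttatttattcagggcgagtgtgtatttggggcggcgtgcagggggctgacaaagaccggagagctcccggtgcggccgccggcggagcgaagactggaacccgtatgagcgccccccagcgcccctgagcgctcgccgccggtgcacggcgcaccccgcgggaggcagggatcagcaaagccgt
The ISG15 window held 2 matches on the gene's strand, GAAAGGGAAA beginning 113 bases and GAAACCGAAA beginning 107 bases before the start site, which overlap each other. The HERC5 window held 3 matches on the opposite strand: a pair of overlapping copies of TTTCCTTTTC that begin 125 and 119 bases before the start site, and TTTCGTTTTC at 74 bases. The HERC6 window and both windows listed for UBE2L6 held none, which says only that these letters are not in these windows. Of 35116 windows of this length, 1255 (3.57%) held at least 1 match. The GAS motif TTCNNNGAA, searched on both strands, was in none of the 5 windows of these genes and in 7.66% of all windows.

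DCAF1, the gene of VprBP, was lower in every VprBP shRNA library, at 38.5, 41.15 and 40.2, against 79.4, 78.45 and 78.7 in the control libraries, so that 50.6% of the control level remained (log2 fold change -0.97, SE 0.05, limma adjusted p = 3.56e-11). Among all genes, 27.8% were called lower, that is, at a limma adjusted p under 0.05. Values are the deposited scaled signal, which is proportional to reads per gene and is not divided by gene length. Depth, as estimated reads over listed genes, was 23029441 to 39633829 in the VprBP shRNA libraries and 22981865 to 32293134 in the control libraries. In a chi-square comparison of estimated reads, VprBP shRNA replicate 3 differed more from the other libraries of its group (6.26 and 6.69 per degree of freedom) than the remaining pairs within groups did (3.39 to 3.85). Of the epithelial marker genes, 6 of 6 were listed, with a summed signal of 2927 to 2977 in VprBP shRNA libraries and 2508 to 2542 in control libraries. These 6 genes did not move together. Their log2 fold changes were 0.71 for KRT8, 0.61 for KRT18, 0.15 for EPCAM, 0.01 for KRT19, -0.08 for CDH1 and -0.37 for ITGA6. Of markers of other cell types, 1 of 8 leukocyte genes was listed (CD68, 25.6 to 26.9 in VprBP shRNA and 25.7 to 26.8 in control libraries), 1 of 6 fibroblast genes (COL1A1, 20.6 to 28.7 and 23.6 to 25.4) and 1 of 4 endothelial genes (PECAM1, 22.6 to 24.0 and 53.0 to 55.1). The part of these markers in the results was not tested.

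All 5 listed genes of the ISG15 system were higher after VprBP depletion, and 4 of them at least 2-fold. ISG15 was 4.71-fold higher, HERC6 3.77-fold, USP18 3.03-fold and HERC5 2.11-fold, while UBE2L6 was 1.29-fold higher. Each was called, with p-values adjusted over all 12227 genes, and in each case every VprBP shRNA library lay above every control library. Of all genes, 33.0% were called higher, 35.1% had groups that do not overlap in that direction (64.8% in either direction), and 1.85% were called and at least 2-fold higher. The median log2 fold change was 1.54 over the 5 genes and 0.02 over all genes. In bulk RNA a change in the share of cells that express a gene and a change in RNA per cell cannot be told apart.

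ISG15, the modifier, gave 186.2, 166.8 and 161.2 in VprBP shRNA libraries, against 37.8, 36.9 and 34.5 in control libraries. The lowest VprBP shRNA library was 4.27 times the highest control library. The group means were 171.4 ± 13.1 and 36.4 ± 1.70 (SD, n = 3 each), and the log2 fold change of 2.22 (SE 0.05, limma adjusted p = 5.97e-15) was the 41st highest of 12227. VprBP shRNA replicate 1 was the highest library. The gene rested on 827 to 7320 estimated reads per library, the most of the 5. ISG15 (ENSG00000187608.10) is listed on the plus strand of chromosome 1 from 1001138 to 1014540 (hg38), a span that begins well upstream of the RefSeq start site shown above and overlaps the antisense gene AL645608.1 and the pseudogene AL645608.3 on the opposite strand, neither analysed here.

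UBE2L6, the conjugating enzyme gene, had the smallest difference. It gave 30.9, 31.6 and 28.8 in VprBP shRNA libraries, against 22.2, 23.7 and 24.6 in control libraries. The groups did not overlap, but the lowest VprBP shRNA library was only 1.17 times the highest control library. Means were 30.4 ± 1.45 and 23.5 ± 1.21 (SD, n = 3 each), with a log2 fold change of 0.37 (SE 0.07, limma adjusted p = 0.000153), and 13.5% of all genes had a larger one. Against a minimum fold of 1.5 (limma's treat test) UBE2L6 was not called, with an adjusted p of 1, whereas the other 4 genes were, in a table with 2.42% of genes called higher by that test. UBE2L6 (ENSG00000156587.16) spans 57551656 to 57568284 of chromosome 11, on the minus strand.

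HERC5, the human ISG15 ligase gene, gave 12.6, 13.6 and 14.1 in VprBP shRNA libraries, against 6.02, 6.30 and 6.80 in control libraries. The log2 fold change came to 1.02 (SE 0.10, limma adjusted p = 1.92e-07). The groups were well apart, and within each group the libraries lay close together. HERC6, its neighbour and relative, gave 26.1, 23.9 and 25.8 in VprBP shRNA libraries, against 6.73, 6.95 and 6.425 in control libraries, a log2 fold change of 1.84 (SE 0.08, limma adjusted p = 1.55e-11). The lowest VprBP shRNA library was 1.86 times the highest control library for HERC5 and 3.44 times for HERC6. HERC6 (ENSG00000138642.16, from 88378739 to 88443097) and HERC5 (ENSG00000138646.9, from 88457119 to 88506163) follow each other on the plus strand of chromosome 4.

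USP18, the ISG15 protease gene, gave 19.6, 20.95 and 20.25 in VprBP shRNA libraries, against 7.53, 7.08 and 5.465 in control libraries. The log2 fold change came to 1.54 (SE 0.11, limma adjusted p = 3.50e-09). The VprBP shRNA libraries were tightly grouped, while control replicate 3 was low. The coefficient of variation of USP18 was 3.29% in VprBP shRNA libraries and 16.2% in control libraries, where counting error alone would give 4.08% and 7.71%. USP18 (ENSG00000184979.12) lies on the plus strand of chromosome 22 from 18149843 to 18177397. Its value carries an added uncertainty, because 23.4% of the 50-base stretches of its GENCODE 29 transcripts also occur in transcripts of other genes, among them USP41, a close copy of USP18 that was not analysed here. The share was 0.63% for HERC6 and 0% for ISG15, UBE2L6 and HERC5. It was 17.8% for DCAF1, shared with RBM15B, which overlaps DCAF1 on the opposite strand, and with the strand setting not given, reads of DCAF1 and RBM15B cannot be told apart where they overlap.

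**Figure D1:**
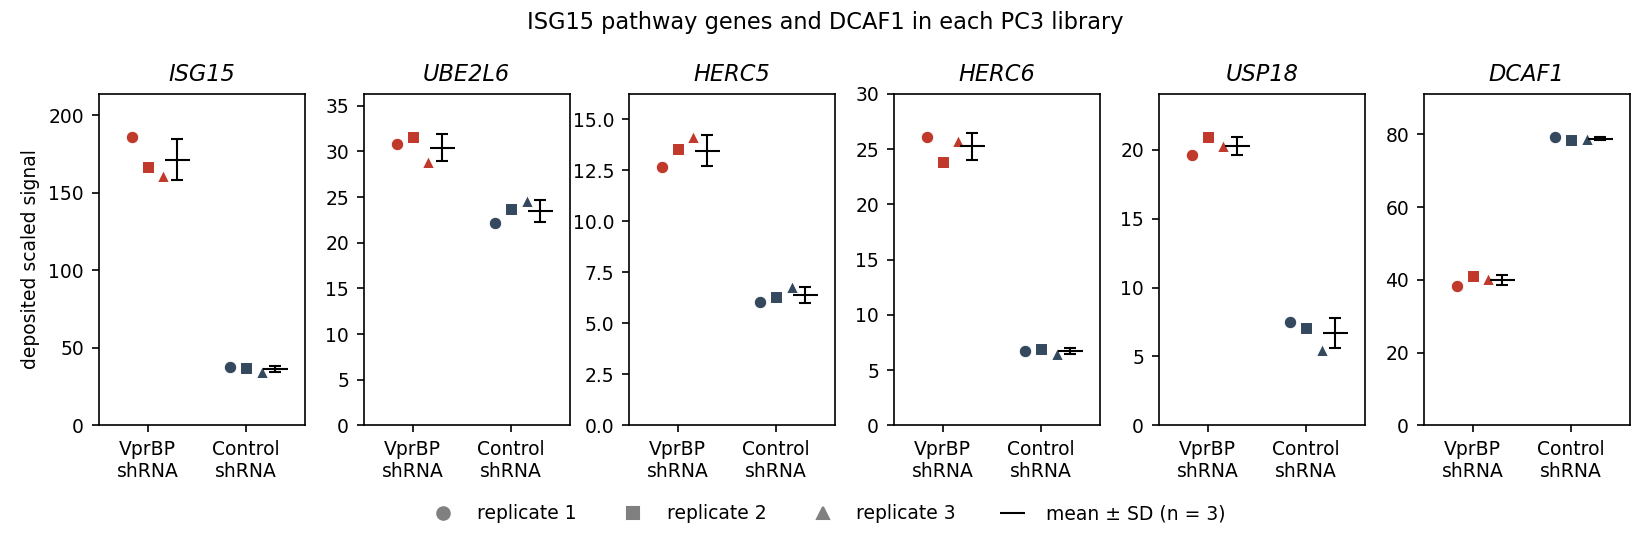
Deposited scaled signal (y axes, from 0) of 5 genes of the ISG15 system and of DCAF1 in each library, with the mean and SD of 3 libraries in black. VprBP shRNA libraries (red, left) lie above control shRNA libraries (dark, right) for ISG15, UBE2L6, HERC5, HERC6 and USP18 and below them for DCAF1.

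Each gene of the table had 150 or more estimated reads in its highest library. All 5 genes passed that mark in a control library too, with 1229 estimated reads of ISG15, 723 of UBE2L6, 245 of USP18, 219 of HERC6 and 196 of HERC5 in the control library with the most, so none was listed through its higher level after knockdown alone. For each of the 5 genes, and for DCAF1, the exact permutation test over the 20 assignments of the libraries gave p = 0.1 (two-sided), the smallest that 3 libraries against 3 allow. The spread of ISG15 between VprBP shRNA libraries, with a coefficient of variation of 7.63%, was above the 1.42% of counting error, whereas that of HERC5, at 5.64%, was near its counting error of 4.99%.

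The genes did not move by equal amounts. The log2 ratio of the signals of 2 genes within a library, not corrected for gene length, was compared between groups for all 10 pairs. Library depth and gene length cancel in the difference between groups, apart from the added 0.5. The ratio of ISG15 to UBE2L6 averaged 2.47 ± 0.10 in VprBP shRNA libraries and 0.62 ± 0.14 in control libraries (SD of log2 ratios, n = 3 each), a difference of 1.85 between the log2 fold changes of these genes. ISG15 also outpaced HERC5 by 1.20, USP18 by 0.68 and HERC6 by 0.38 on the log2 scale. The log2 ratio of ISG15 to USP18 RNA signal stood at 3.05 ± 0.14 in VprBP shRNA libraries and 2.37 ± 0.16 in control libraries (SD, n = 3 each).

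Between the ligase genes, the log2 ratio of HERC5 to HERC6 was -0.89 ± 0.12 in VprBP shRNA libraries and -0.07 ± 0.12 in control libraries (SD, n = 3 each), so HERC5 was 0.82 lower relative to HERC6 after knockdown. HERC5 also moved less than USP18, by -0.52. Of all single genes, 64.8% had groups that do not overlap in either direction. The share over pairs of other genes was not tested. The 10 ratios share genes, so they are not independent of each other. The groups did not overlap for 9 of the 10 ratios. The exception was HERC6 to USP18, whose ratio ranged from 0.18 to 0.40 in VprBP shRNA libraries and from -0.15 to 0.22 in control libraries (difference 0.30, exact permutation p = 0.2). For the 9 other pairs the exact permutation p was 0.1, the smallest possible, and 0.111 adjusted over the 10 pairs. With 3 libraries against 3 this exact test cannot reach 0.05, so its p-values do not separate large differences from small ones.

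To set levels of different genes side by side, the signal was divided by the summed length of each gene's exons in GENCODE 29. Per kb, ISG15 was by far the most abundant, at 182.2 ± 13.9 in VprBP shRNA libraries and 38.7 ± 1.81 in control libraries (SD, n = 3 each). UBE2L6 followed with 13.8 ± 0.66 and 10.7 ± 0.55 signal per kb, and USP18 with 9.52 ± 0.31 and 3.14 ± 0.51 signal per kb. The HERC genes were lowest: HERC6 had 4.36 ± 0.21 and 1.16 ± 0.05 signal per kb, and HERC5 had 2.82 ± 0.16 and 1.34 ± 0.08 signal per kb. In VprBP shRNA libraries no neighbours in this order overlapped. In control libraries the HERC genes stood in the opposite order, and with the longest coding transcript as length they overlapped, HERC6 with 1.70 to 1.84 and HERC5 with 1.72 to 1.94 signal per kb. ISG15 made up 85.6% ± 0.93 of the summed signal per kb of the 5 genes in VprBP shRNA libraries and 70.3% ± 1.10 in control libraries, and UBE2L6 6.52% ± 0.37 and 19.5% ± 1.59 (SD, n = 3 each).

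**Figure D2:**
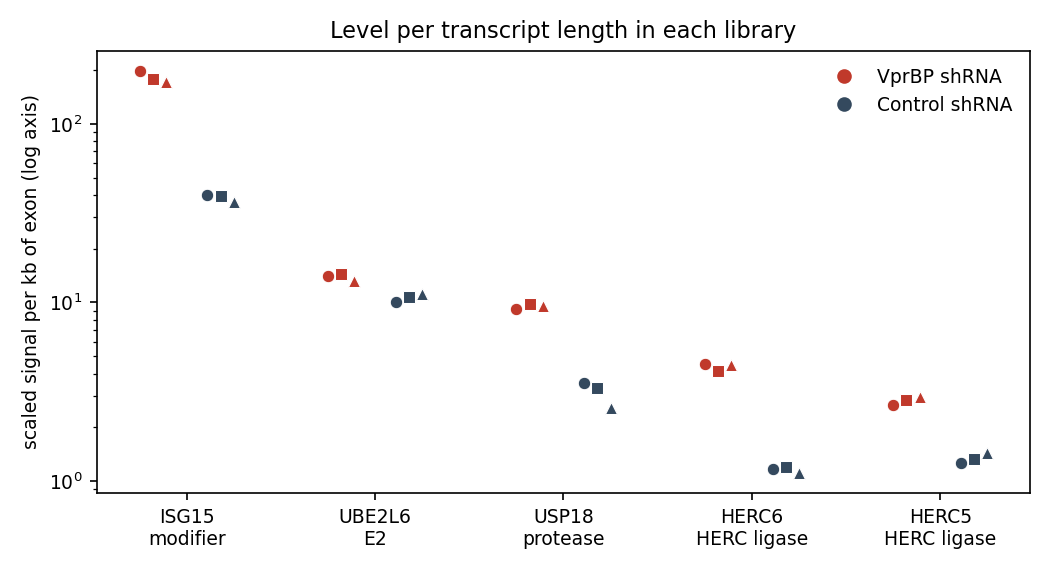
Scaled signal per kb of exon on a log axis, for each library (points) of the VprBP shRNA (red) and control shRNA (dark) groups. ISG15 is highest in both groups, UBE2L6 shows the smallest gap between groups, and HERC6 and HERC5 are lowest.

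On the chromosomes, the nearest listed genes on either side of ISG15 and USP18 had small differences, while 1 such neighbour of UBE2L6 rose. Nearest listed genes need not be adjacent: PI4KAP1 begins at 18533646, whereas USP18 ends at 18177397. HES4 and AGRN flank ISG15. HES4 was not called (27.1 in VprBP shRNA and 28.9 in control libraries; limma adjusted p = 0.337), and AGRN had a log2 fold change of -0.18 with groups that overlap, a call that was lost without control replicate 1 or 3 (limma adjusted p = 0.0611 and 0.0581). Beside USP18, PEX26 and PI4KAP1 had log2 fold changes of -0.10 and 0.09, the first called at a limma adjusted p of 0.0494 and not called when any library other than VprBP shRNA replicate 3 was left out (0.0657 to 0.14), and the second not called. Beside UBE2L6, TIMM10, a mitochondrial import gene, rose 1.42-fold, beside 1.29-fold for UBE2L6, and CLP1 was not called.

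On chromosome 4, where HERC genes lie side by side, the picture was mixed. PPM1K, on the far side of HERC6, fell to 15.9 ± 0.15 in VprBP shRNA libraries, against 24.5 ± 1.74 in control libraries (SD, n = 3 each). Beyond HERC5, PYURF and PIGY, which share 1 span and identical values in the table, rose 1.21-fold. HERC3, a further gene of the HERC family past them, gave 15.4, 16.7 and 15.6 in VprBP shRNA libraries, against 12.5, 8.63 and 7.88 in control libraries. HERC3 rose (log2 fold change 0.72, SE 0.13, limma adjusted p = 0.000156), and control replicate 1 was nearer to the VprBP shRNA libraries than the other control libraries were.

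**Figure D3:**
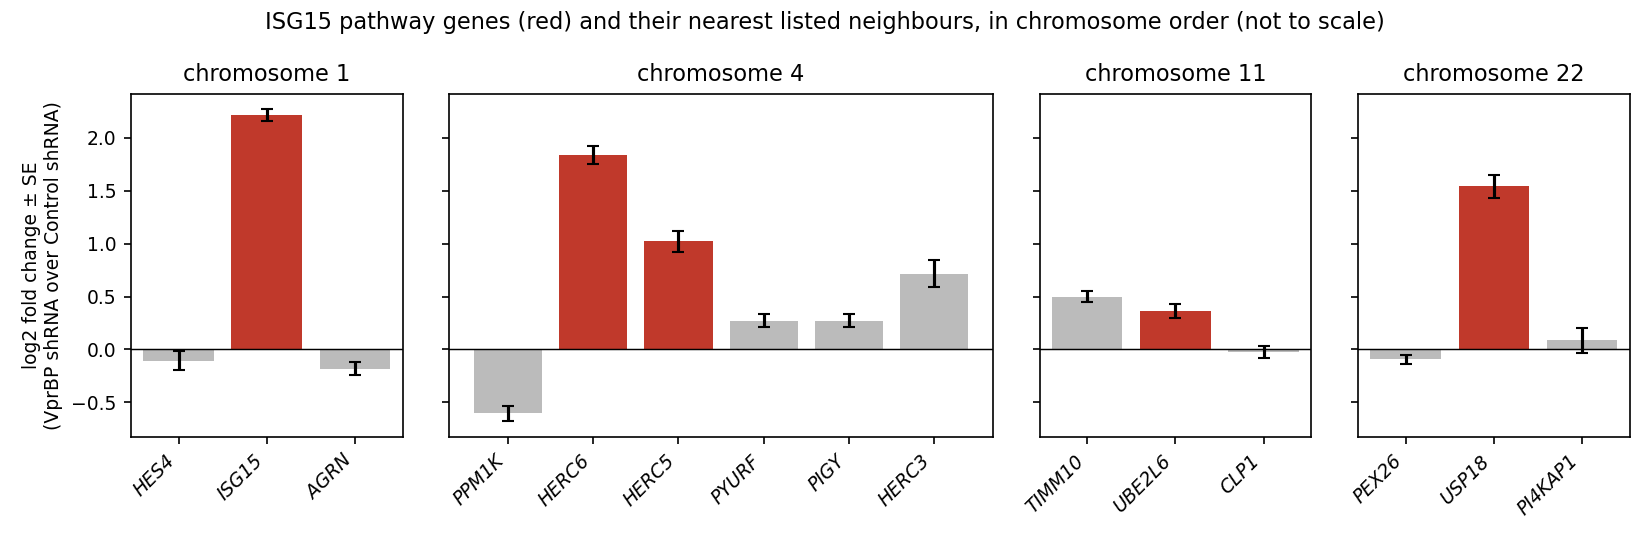
Log2 fold change with SE, VprBP shRNA over control shRNA, of genes of the ISG15 system (red) and of listed neighbours (grey) in chromosome order, not to scale. ISG15 and USP18 stand between genes with changes of -0.18 to 0.09, HERC6 and HERC5 stand beside genes that fell or rose less, and TIMM10 exceeds UBE2L6.

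Genes with the most similar profile were sought among 11608 genes with a mean signal of at least 5, by the root mean square difference of log2 signals over the 6 libraries after centring each gene. Because the groups differ, such likeness is mostly likeness in fold change. ISG15 was nearest to the cyclin gene CCNE2 (0.08), to PMEPA1 (0.09) and to OAS1, an interferon-induced sensor of double-stranded RNA (0.11). HERC5 was nearest to CYP1B1, the interferon-inducible NMI and CASP14 (0.05 each). HERC6 was nearest to KRT75, CST6 and OLFML3 (0.08 to 0.09), and USP18 to ROBO4, TNFAIP3 and FGF2 (0.08 to 0.11). UBE2L6 was nearest to RBM4, RASSF5 and OSGIN1 (0.02 each). None of the 5 was among the 3 genes nearest to another: the closest pair, HERC6 and USP18, differed by 0.19.

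The signalling genes that lead to ISG15 were mostly higher too. Of 11 genes of the type I interferon signal, 10 were listed. The list had 8 genes that rose and none that fell, IFNAR2 and TYK2 were not called, and the median log2 fold change was 0.45. Of all genes, 33.0% were called higher and 27.8% lower. IRF9, the DNA-binding subunit of the complex that binds the ISRE, gave 63.2, 65.5 and 64.6 in VprBP shRNA libraries, against 9.89, 8.41 and 7.10 in control libraries. Its fold, 7.61, was larger than that of any of the 5 ISG15 system genes. IRF1, a further regulator of interferon-induced genes, rose 2.31-fold. STAT2, to which USP18 binds, rose 1.63-fold and IRF7, an interferon-induced regulator, rose 1.99-fold; both were chosen after their values were seen. IFNAR2, the receptor subunit bound by USP18, averaged 20.5 ± 1.59 in VprBP shRNA libraries and 18.6 ± 0.78 in control libraries (SD, n = 3 each; limma adjusted p = 0.130). The interferon gene IFNB1 was not analysed here.

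Other enzymes and partners linked to ISG15 changed little. Of 12 such genes 10 were listed, and all 10 were called, 4 higher and 6 lower, in a table with 60.9% of genes called in either direction, and none reached 2-fold. The largest increase was 1.24-fold, for the protease gene USP5, followed by USP16 (1.20-fold) and USP14 (1.12-fold), which encode proteases reported to react with ISG15. ITGB2, whose product is part of the surface receptor reported for free ISG15, fell to 79.1 ± 2.45 in VprBP shRNA libraries, against 97.7 ± 4.62 in control libraries (SD, n = 3 each). USP21 and UBE2E1, an alternative conjugating enzyme gene, had log2 fold changes of -0.24 and -0.23. Among the ligase genes TRIM25 and ARIH1, named after their values were seen, ARIH1 had a log2 fold change of -0.18. TRIM25 was 1.07-fold higher (limma adjusted p = 0.0232), and that call was lost under median-ratio scaling (0.0862), library-total scaling (0.0771) and voom (0.0691) and without VprBP shRNA replicate 1 or 2 or control replicate 1 or 3 (0.0627 to 0.0899).

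Proteins reported to carry ISG15 formed a mixed list. All 27 genes were listed: 19 rose, 5 fell, 3 were not called, and the median log2 fold change was 0.22, in a table with 33.0% of genes called higher and 27.8% lower. The list shares TRIM25 with the partners above and includes IRF3 and JAK1 of the signal as well as interferon-induced effectors, and 8 of its members rose at least 2-fold, against 1.85% of all genes. MX1, an antiviral GTPase gene, averaged 151.2 ± 3.90 in VprBP shRNA libraries and 9.05 ± 0.56 in control libraries, and IFIT3, which encodes an RNA-binding antiviral protein, averaged 51.9 ± 2.0 and 5.38 ± 0.34 (SD, n = 3 each). RSAD2, the gene of viperin, averaged 7.80 ± 0.23 and 0.20 ± 0.02 (SD, n = 3 each). It had 177 to 298 estimated reads in VprBP shRNA libraries and 4 to 7 in control libraries. It reached the 150 reads of the table in the VprBP shRNA group alone, so its listing was not independent of its higher level there. It is 1 of the 8 genes counted at 2-fold, and the other 26 substrate genes reached that mark in both groups. TP63, which encodes the basal cell factor p63, fell to 3.74 ± 0.58 in VprBP shRNA libraries, against 13.7 ± 1.70 in control libraries (SD, n = 3 each). STING1, the gene of an adaptor in DNA sensing, had a log2 fold change of -0.55.

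The enzyme and modifier families to which these genes belong were mixed, with no change as large as those of ISG15, HERC6, USP18 and HERC5. No other listed E1, E2, HERC or USP gene, and no listed ubiquitin-like modifier other than ISG15, was called at 2-fold. Of all genes, 33.0% were called higher and 27.8% lower. The share called higher was 44.4% for the other E1, 51.5% for the other E2 and 25.0% for the other HERC genes. It was 22.7% for the other USP family genes and 64.7% for the modifier genes. Whether these shares differ from that of all genes was not tested. Relative to UBA7's family, 4 of 9 other E1 genes rose and 5 were not called, led by UBA3, which activates NEDD8 (1.24-fold). Relative to UBE2L6, 17 of 33 other listed E2 genes rose and 7 fell, with UBE2C, a mitotic conjugating enzyme gene, 1.49-fold higher, more than the 1.29-fold of UBE2L6, and BIRC6 with a log2 fold change of -0.46. Of the 4 other HERC genes, HERC3 rose, HERC1 and HERC2 had log2 fold changes of -0.43 and -0.30, and HERC4 was not called. Relative to USP18, 10 of 44 other listed USP family genes rose and 19 fell, with CYLD at 1.36-fold and USP25 at a log2 fold change of -0.59; USP5, USP14, USP16 and USP21 are also in the list of ISG15 partners. Of 17 listed ubiquitin and ubiquitin-like modifier genes, 11 rose and 1, GABARAPL1, fell, with SUMO3 1.34-fold higher. Of 7 other listed genes that restrain interferon signalling, 3 rose and 2 fell, none at 2-fold. PTPN6 rose 1.27-fold, and without control replicate 1 the list had 3 called genes in place of 5. CISH, 1 of the 3 that rose, had 113 to 231 estimated reads in VprBP shRNA libraries and 87 to 124 in control libraries. It reached 150 estimated reads in the VprBP shRNA group alone, so its listing may not be independent of its rise. Estimated reads also depend on depth, which reached 39633829 in VprBP shRNA libraries and 32293134 in control libraries. The part of each in the listing was not tested. Its groups also overlapped, with a signal of 4.96 in VprBP shRNA replicate 3 and 5.17 in control replicate 3. The call of CISH was lost without VprBP shRNA replicate 1 or 2 or control replicate 1 or 2 (limma adjusted p = 0.0848 to 0.118). That of SOCS3, 1 of the 2 that fell, was lost without VprBP shRNA replicate 3 or control replicate 1 or 3 (limma adjusted p = 0.0528 to 0.151).

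**Figure D4:**
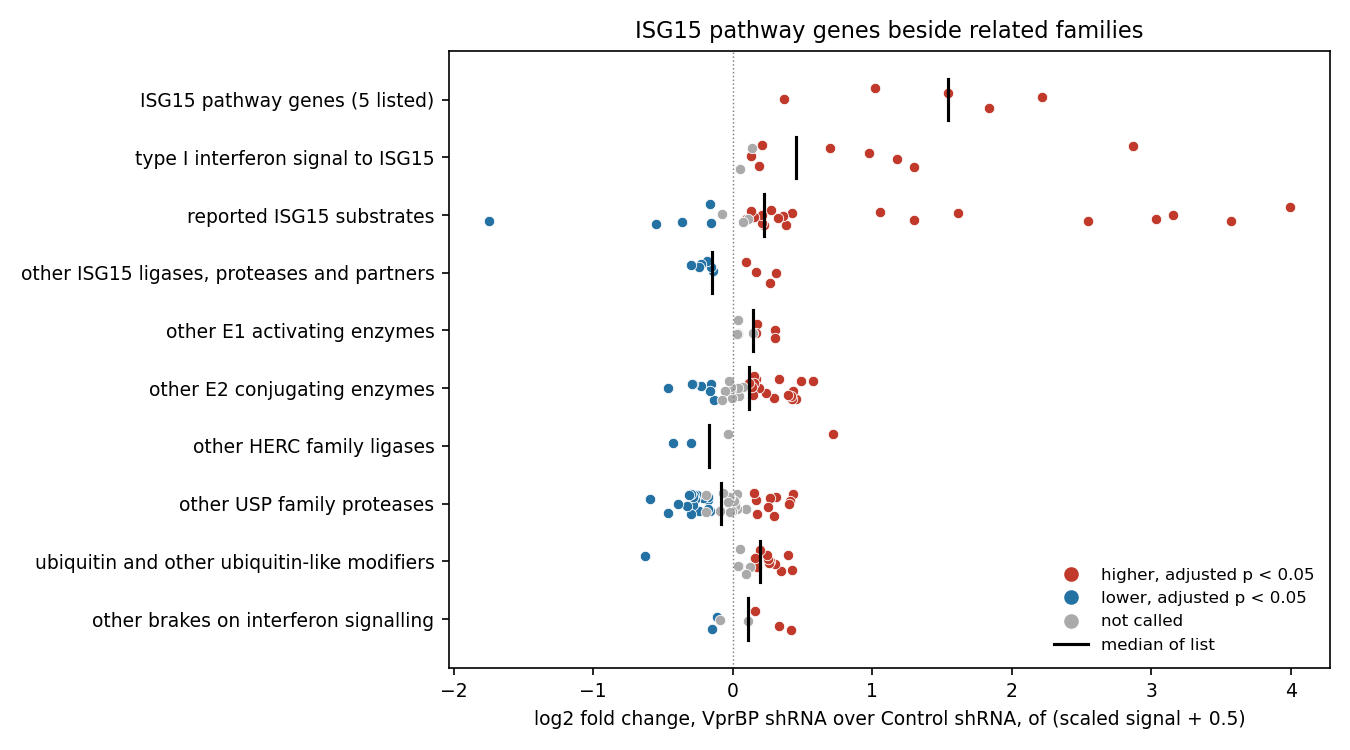
Log2 fold change of each listed gene (points, coloured by call) in the ISG15 system and in related lists, with the list median as a black bar. The 5 ISG15 system genes lie between 0.37 and 2.22, while the listed genes of the enzyme and modifier families lie within -0.63 and 0.72.

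**Figure D5:**
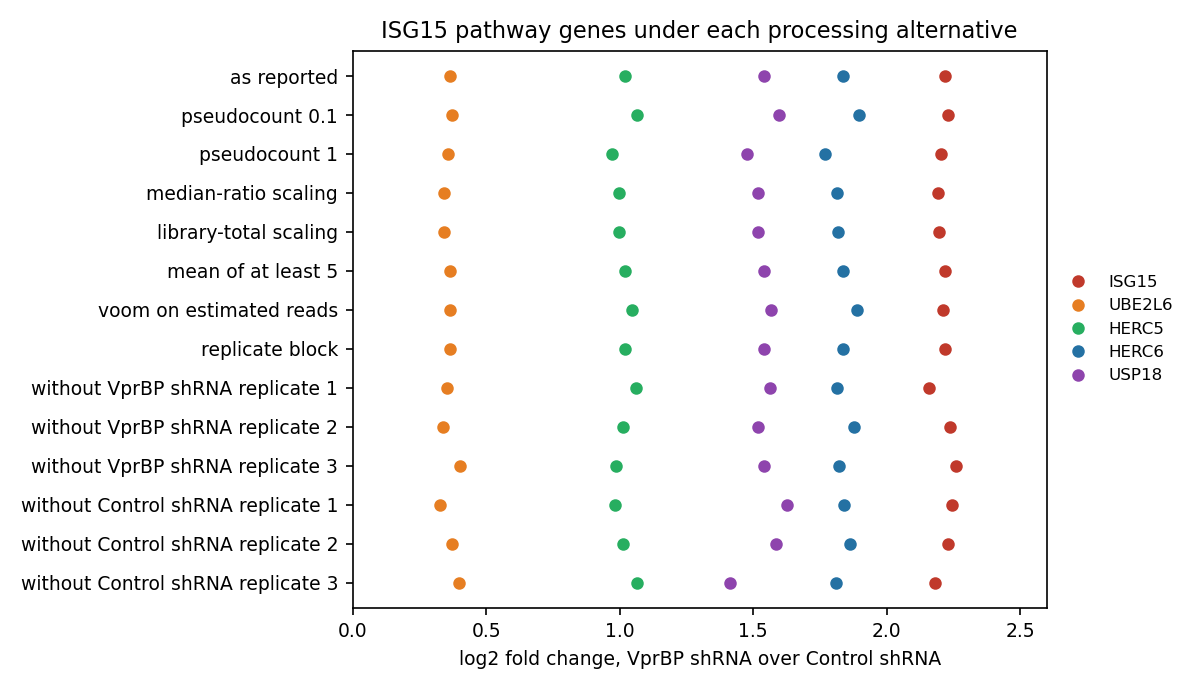
Log2 fold change of the 5 genes (x axis, VprBP shRNA over control shRNA) as reported and under each alternative processing (rows). The order of the genes was the same in every row, and the widest range was that of USP18, from 1.41 to 1.63.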

How the data were processed

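RNA sequencing was analysed for 6 PC3 libraries. The authors' deposited values are named raw counts but are a scaled signal: the 75th percentile lay between 78.99 and 79.02 in every library, and 55.5% to 65.0% of values were whole multiples of 1 step per library (tolerance 0.02 reads), too few to recover whole reads. Estimated reads are values divided by that step (0.0254 to 0.0439). Per the labels' protocols, libraries came from a SMARTer mRNA-seq kit. Per the submitters' processing notes, Partek and hg38 were used; the aligner, quantifier, strand setting and scaling method were not given in the sources used here. Ends of genes are the deposited ends minus 1, as checked against GENCODE 29 (6958 of 12012 ends identical with that step, 153 without).

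Testing used limma 3.58.1 under R 4.3.3 (trend, two-sided, no block) on log2(value + 0.5), with Benjamini-Hochberg adjustment over 12227 genes and a threshold of 0.05. Log2 fold changes are on that scale and are too small for low genes, and folds are ratios of group means. The code was tested on simulated data. Single values were also tested by exact permutation (scipy 1.17.1). The members and lists were chosen with earlier results of these data known. Named genes are the members, DCAF1, up to 3 called genes per list and direction with a mean of at least 1 and the largest change, the most abundant marker, the nearest listed gene on each side and the 3 most similar profiles; additions are marked. Values of some genes of these lists are not reported here.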

Additional observations from a re-analysis of the deposited data

How the results depend on the processing

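The directions of ISG15, UBE2L6, HERC5, HERC6, USP18 and DCAF1 held under all 15 alternatives, and 5 of 5 ISG15 system genes were called under each except the fold minimums. Against a fold of 1.5 UBE2L6 was not called (log2 fold change 0.37), and with a 2-fold minimum neither UBE2L6 nor DCAF1 (-0.97) was. Over all alternatives the log2 fold change ranged from 2.16 to 2.26 for ISG15, 0.33 to 0.40 for UBE2L6, 0.97 to 1.07 for HERC5, 1.77 to 1.90 for HERC6 and 1.41 to 1.63 for USP18, whose lowest value came without control replicate 3. All genes called numbered 651 against a fold of 1.5 and 454 at 2-fold, against 7441 as reported. Against a fold of 1.5 the ISG15 substrate list had 9 called genes, the type I interferon signal list 4 and the other 7 lists 0. At 2-fold the substrate list had 9, the signal list 3 and the other 7 lists 0. Leaving out each library gave 3 to 4 called genes that restrain interferon signalling. The differences between pairs of the 5 genes kept their direction with other pseudocounts and with each library left out.

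Deviations from the group mean correlated at 0.03, -0.18 and -0.17 for same-numbered libraries of the 2 groups, and at -0.10 to 0.22 for differently numbered ones. Because deviations are centred within groups of 3, these values cannot decide if the replicate numbers pair the libraries. With the replicate block 7042 genes were called, and the log2 fold change of ISG15 stayed at 2.22 (limma adjusted p = 2.59e-13).

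Of genes not called, signs turned under median-ratio scaling, library-total scaling and voom, in that order, for CD68 (-0.0189, -0.0164 and -0.0186), COL1A1 (-0.0176, -0.0150 and -0.0005) and KRT19 (-0.0187, -0.0161 and -0.0144). As reported, the log2 fold changes were 0.0061 for CD68, 0.0074 for COL1A1 and 0.0069 for KRT19. The cause of the turns was not tested. With libraries left out, ranges were -0.0125 to 0.0284 for CD68, -0.1050 to 0.1291 for COL1A1, -0.0196 to 0.0340 for KRT19, -0.0500 to 0.0104 for CLP1, -0.2049 to 0.0328 for HES4 and -0.0046 to 0.1909 for PI4KAP1. Median-ratio scaling moved the median log2 fold change of all genes to -0.001, against 0.02 as deposited. The block ended the calls of CDH1 (limma adjusted p = 0.0851), PEX26 (0.0935) and TRIM25 (0.0546) among the named genes. Depth limits HERC5, HERC6 and USP18 most, with 131 to 245 estimated reads in control libraries.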
